A study of Arabidopsis thaliana with 12 samples.

Results

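The 37 mitochondrially encoded genes described here are the Arabidopsis thaliana rows whose identifier begins with ATMG, without a transcript suffix, and that had counts in all 12 libraries of a study of germinating seeds under salt. They were 37 of the 17751 genes counted in every library. A further 12 ATMG identifiers were not counted in all libraries, held 0.3325% of all ATMG counts, and were left out. The study compared 2 mutant lines, ago4-2 and ago4-3, with wild-type Col-0. AGO4, the gene both mutants are named for, encodes an Argonaute protein that uses small RNAs to guide DNA methylation. Seeds germinated at 21 °C, with 16 h of light at 100 uE and 8 h of dark, on MS 1X medium with 100 mM NaCl or on MS 1X alone as control. The 6 groups, with 2 libraries each, were ago4-2 in NaCl, ago4-2 in control, ago4-3 in NaCl, ago4-3 in control, Col-0 in NaCl and Col-0 in control. Every library was made from polyadenylated RNA of germinating seeds, and the labels give no hour of sampling and no number of seeds. The libraries are named biological replicates in the design text, which does not speak of separate cultures, so the p-values reflect only how far these libraries lay apart, which may be technical.

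Plant mitochondria keep a small genome that encodes a few subunits of the respiratory complexes and the ATP synthase, proteins of cytochrome c maturation, some ribosomal proteins, and ribosomal and transfer RNAs. The remaining subunits come from nuclear genes, and germinating seeds depend on both sets, because mitochondria mature and take up respiration as the seed imbibes. In plant mitochondria a poly(A) tail marks an RNA for decay, and many transcripts are spliced and edited before use. In Col-0, chromosome 2 carries a long insertion of mitochondrial DNA beside the centromere, so that many mitochondrial genes have a nuclear copy.

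Of the 37 members, 13 could be given a name or role from RefSeq notes (build TAIR10.1) that pair a chromosome 2 gene with an ATMG identifier. They are nad2 (ATMG01320) and nad3 (ATMG00990), subunits of complex I, which oxidises NADH; cob (ATMG00220), cytochrome b of complex III; and cox3 (ATMG00730), a subunit of cytochrome c oxidase. The ATP synthase subunits were atp1 (ATMG01190), atp6 (ATMG00410), atp9 (ATMG01080) and ATMG01090, which its note calls an ATP synthase 9 gene. The ribosomal protein genes were rpl2 (ATMG00560), rpl5 (ATMG00210), rps4 (ATMG00290) and rps12 (ATMG00980). ATMG00180 is noted as a cytochrome c biogenesis gene. The note of ATMG01320 reads NADH dehydrogenase 2B, and the sources used here do not say whether this row covers all of nad2. The other 24 members are given by identifier only, and the sources used here do not say which of them are ribosomal RNA genes.

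The sequences show how closely the mitochondrial genes and their nuclear copies resemble each other in TAIR10.1, since the assignment of reads depends on such likeness. They were read from the RefSeq TAIR10.1 genome on the coding strand. The submitters name TAIR10 as their build, and its mitochondrial sequence is not that of TAIR10.1. The identities given here may therefore not hold for the sequence to which the reads were assigned. The nad3 gene is shown because it gave the strongest changes below. It lies at 288044 to 288400 of the mitochondrial genome (MT, plus strand), is a single exon of 357 bases, and its chromosome 2 copy AT2G07751 (chr2:3270008-3270364, plus strand) has 0 differences, so 1 sequence, from the start codon to base 300, stands for both.
nad3 and AT2G07751, first 300 bases: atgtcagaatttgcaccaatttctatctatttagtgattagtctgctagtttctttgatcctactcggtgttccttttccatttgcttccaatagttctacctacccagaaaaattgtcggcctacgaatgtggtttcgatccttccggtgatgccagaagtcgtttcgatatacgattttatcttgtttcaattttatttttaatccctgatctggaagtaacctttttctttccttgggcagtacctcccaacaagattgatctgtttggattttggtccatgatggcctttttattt
The atp9 gene (MT, 270961 to 271185, minus strand) and AT2G07671 (chr2:3251856-3252080, minus strand) are likewise identical over 225 bases and are shown as an ATP synthase pair in which copy and member ranked the 2 libraries of a group alike in all 6 groups.
atp9 and AT2G07671: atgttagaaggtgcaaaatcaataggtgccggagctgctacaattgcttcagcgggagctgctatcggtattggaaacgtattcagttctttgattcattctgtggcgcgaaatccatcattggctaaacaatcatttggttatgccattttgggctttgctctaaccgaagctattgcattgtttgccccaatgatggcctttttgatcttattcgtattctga
For rpl2 a window of 51 bases is shown because the genomic sequences of member and copy differ there, with the differing bases in capitals. As transcripts may be edited, whether reads over it tell member and copy apart was not tested. The member's window lies at 222066 to 222116 of MT (minus strand) and the copy's in AT2G07715 at chr2:3411674-3411724 (plus strand). The copy had 4 differences in 2565 bases.
rpl2: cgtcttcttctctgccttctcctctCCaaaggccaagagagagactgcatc
AT2G07715: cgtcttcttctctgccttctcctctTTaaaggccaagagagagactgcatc

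Library depth ran from 18168653 to 47517007 counts (median 27376155). AGO4 RNA, the check of the labels, stood at 0.549 to 1.35 CPM in the 4 ago4-3 libraries, at 35.4 to 49.1 CPM in the 4 ago4-2 libraries and at 38.9 to 46.9 CPM in the 4 Col-0 libraries. The level of AGO4 RNA therefore sets the ago4-3 label apart and does not check the ago4-2 label. CPM are counts of a gene per fixed number of library counts, with library totals scaled by TMM factors. Seed storage markers (4 of 4 counted) were present in every library, and 0 of 2 root hair markers were counted in all libraries. From 72.4% to 87.7% of counts between 1 and 20 in a library were even, so counts may come in pairs and counting intervals may be too narrow.

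Mitochondrial RNA was a small and very uneven part of the libraries, from 0.0369% to 0.674% of counts, an 18.3-fold range. In ago4-2 seeds in NaCl it made up 0.400% and 0.279% of counts, and in ago4-2 seeds in control 0.674% and 0.0761%. In ago4-3 seeds it made up 0.0369% and 0.152% in NaCl, and 0.437% and 0.285% in control. In Col-0 seeds it made up 0.0682% and 0.154% in NaCl, and 0.144% and 0.0743% in control. Both ago4-2 libraries in NaCl and both ago4-3 libraries in control therefore lay above all 4 Col-0 libraries. Of the ago4-2 control libraries, replicate 1 lay above the Col-0 libraries and replicate 2 lay within their range. Of the ago4-3 NaCl libraries, replicate 2 lay within that range and replicate 1 below it.

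Group means were 0.339% ± 0.0861 in ago4-2 in NaCl, 0.375% ± 0.423 in ago4-2 in control, 0.0944% ± 0.0813 in ago4-3 in NaCl, 0.361% ± 0.108 in ago4-3 in control, 0.111% ± 0.0605 in Col-0 in NaCl and 0.109% ± 0.0496 in Col-0 in control (SD, n = 2 each). The SD exceeded the mean in ago4-2 in control, where replicate 1 held 8.86 times the share of replicate 2. In ago4-3 in NaCl, replicate 2 held 4.11 times the share of replicate 1. In the other 4 groups the higher library held 1.44 to 2.25 times the lower. Counting error was small beside this, with a 95% Wilson interval of 0.0361% to 0.0377% at the lowest share and 0.671% to 0.678% at the highest. In bulk seeds, fewer cells or mitochondria of a kind and less RNA in each cannot be told apart.

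**Figure D1:**
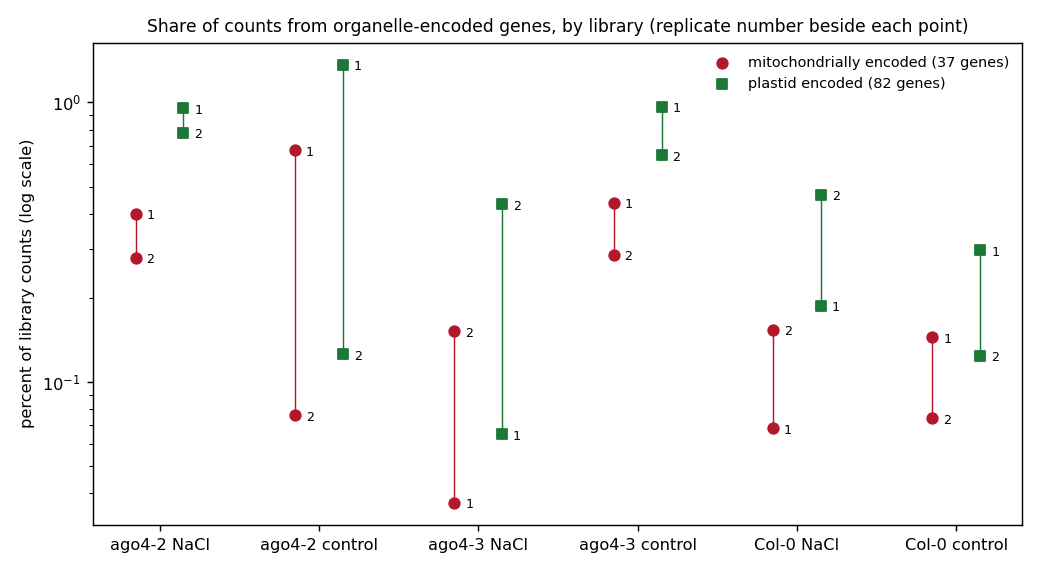
Percent of library counts (log axis) from the 37 mitochondrially encoded genes (circles) and the 82 plastid-encoded genes (squares), with a line joining the 2 libraries of a group and the replicate number beside each point. The mitochondrial share runs from 0.0369% in ago4-3 NaCl replicate 1 to 0.674% in ago4-2 control replicate 1, and the plastid share moves with it.

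Plastid-encoded RNA, counted in 82 genes, moved with the mitochondrial share. It ranged 21.0-fold, from 0.0650% to 1.37% of counts, with its lowest and highest values in the same libraries as the mitochondrial share, while the ratio of plastid to mitochondrial counts stayed between 1.65 and 3.04 (median 2.24). The markers of seed tissues did not follow the difference between the ago4-2 control libraries. In replicates 1 and 2 of that group, the 4 storage markers summed to 1460 and 1364 CPM, the 3 endosperm markers to 295 and 273 CPM, and the 2 green tissue markers to 3589 and 3082 CPM. Between groups the storage markers did differ, with 8438 and 9474 CPM in ago4-2 in NaCl, 1518 and 1427 CPM in ago4-3 in NaCl, 227 and 134 CPM in ago4-3 in control, 568 and 869 CPM in Col-0 in NaCl, and 116 and 156 CPM in Col-0 in control. The endosperm markers summed to 146 and 144 CPM in ago4-2 in NaCl, 46.0 and 51.8 CPM in ago4-3 in NaCl, 79.9 and 51.5 CPM in ago4-3 in control, 87.0 and 111 CPM in Col-0 in NaCl, and 130 and 147 CPM in Col-0 in control. The 3 markers did not move alike. Their log2 fold changes of NaCl over control ran from −1.54 to 0.82 in ago4-2 and from −1.87 to 0.36 in ago4-3. Their sum was lower in ago4-3 than in ago4-2 in NaCl, as was the mitochondrial share. In control the sum of the endosperm markers was again lower in ago4-3. The mitochondrial shares of its control libraries, by contrast, lay between those of the ago4-2 control libraries. The green tissue markers summed to 3782 and 4093 CPM in ago4-2 in NaCl, 5231 and 4505 CPM in ago4-3 in NaCl, 2852 and 3154 CPM in ago4-3 in control, 4407 and 5408 CPM in Col-0 in NaCl, and 2537 and 2219 CPM in Col-0 in control. In ago4-3 they were higher in NaCl, where the members were lower. The part of seed tissue make-up, or of the share of organelle RNA captured, in the results below was not tested.

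Of the mitochondrial counts, 2 members took most. ATMG00020 held 47.4% and ATMG01390 29.0% on average, and together they held 41.3% to 87.9% in a library (median 80.1%). These are shares of counts, not per length. The lowest of these shares came from ago4-3 NaCl replicate 1, where the mitochondrial share was lowest too. ATMG00020 stood at 2488 and 1621 CPM in ago4-2 in NaCl, 4322 and 313 CPM in ago4-2 in control, 88.3 and 770.0 CPM in ago4-3 in NaCl, 2357 and 1560 CPM in ago4-3 in control, 267 and 741 CPM in Col-0 in NaCl, and 622 and 269 CPM in Col-0 in control. The ago4-2 control libraries thus span most of the other libraries. ATMG01390 stood at 1406 and 975 CPM in ago4-2 in NaCl, 2633 and 191 CPM in ago4-2 in control, 64.1 and 468 CPM in ago4-3 in NaCl, 1363 and 872 CPM in ago4-3 in control, 167 and 467 CPM in Col-0 in NaCl, and 394 and 186 CPM in Col-0 in control. It had its lowest and highest values in the same libraries as ATMG00020. The remaining 35 members summed, per unscaled library total, to 522 ± 82.8 CPM in ago4-2 in NaCl, 515 ± 428 in ago4-2 in control, 257 ± 57.7 in ago4-3 in NaCl, 514 ± 91.4 in ago4-3 in control, 254 ± 80.6 in Col-0 in NaCl and 284 ± 64.8 in Col-0 in control (SD, n = 2 each).

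The members varied far more between libraries than other genes. The highest library stood at a median of 15.1 times the lowest over the 37 members in CPM, against 1.77 times over all genes. The ratio was 10 or more in 24 members, 4 to 10 in 7 and under 4 in 6, whereas 90.9% of all genes stayed under 4. In ago4-3 NaCl replicate 1, ATMG00080, rpl5 and nad3 had 0 counts, which allows up to 0.146 CPM (3 counts). The ratios of ATMG00080 and rpl5 were computed from that limit, and that of nad3 from its lower value of 0.0686 CPM in replicate 2, which gave 36.6. The SD between replicates of a group on the scale of log2(CPM + 0.1) had a median of 1.02 in the members, 1.302 in plastid-encoded genes and 0.15 in all genes. All 37 members were higher in ago4-2 control replicate 1 than in replicate 2, by a median of 8.09 times (range 1.75 to 18.5). In ago4-3 in NaCl, 31 of 37 members were higher in replicate 2.

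**Figure D2:**
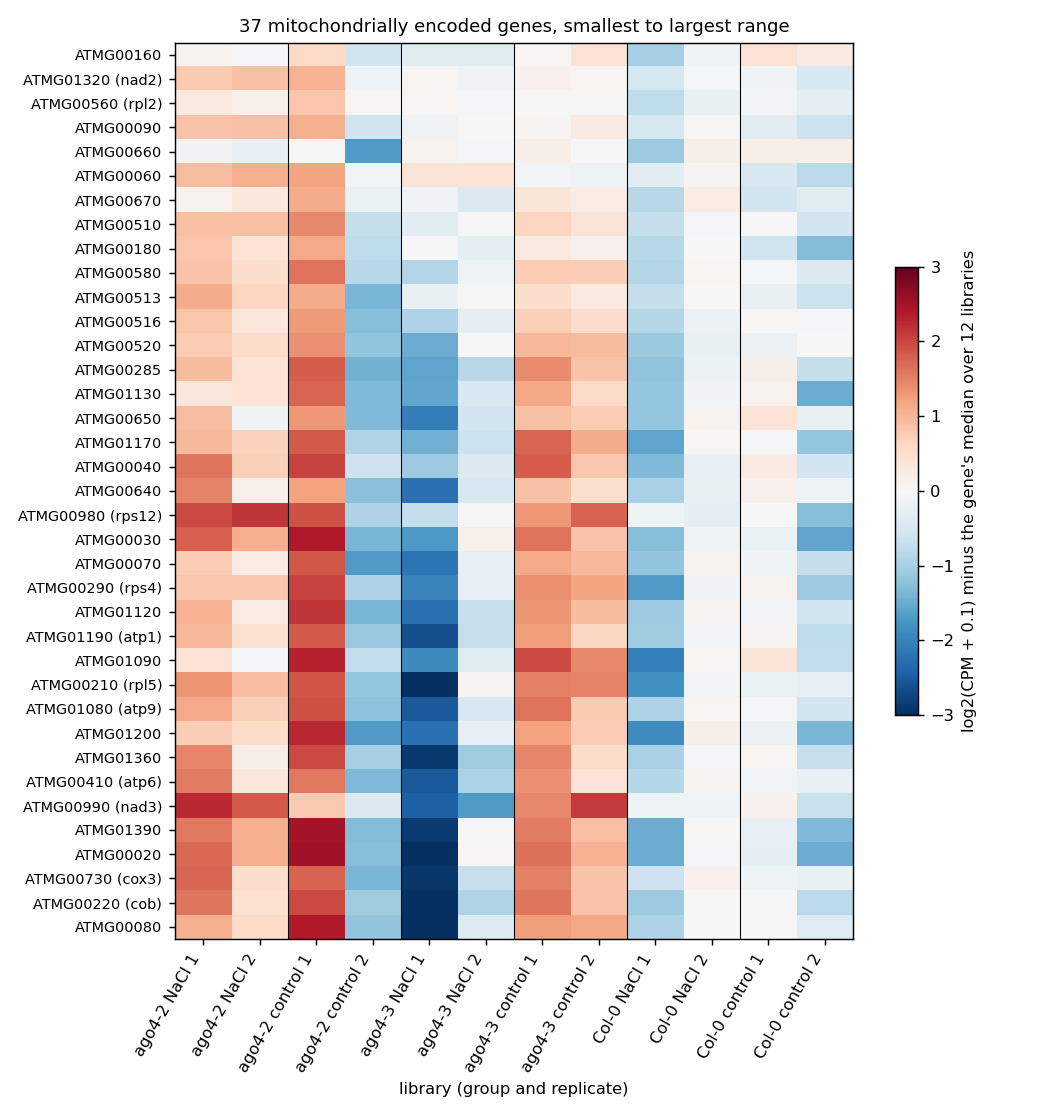
Level of each of the 37 members in each library as log2(CPM + 0.1) minus the gene's median over the 12 libraries, in colour, with members ordered from the smallest range at the top to the largest at the bottom. The ago4-2 control columns differ in nearly every row, and 6 members at the top, among them nad2 and rpl2, stay within a 4-fold range.

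The 6 steadiest members were ATMG00160, nad2, rpl2, ATMG00090, ATMG00660 and ATMG00060. Among them, the sources used here give gene structure for nad2 and rpl2 only. RefSeq gives introns for nad2 and rpl2 and none for 9 members (rpl5, cob, rps4, atp6, cox3, rps12, nad3, atp9 and atp1). ATMG00180 and ATMG01090 could be put in neither class, and 24 members are not annotated, some of which may have introns. The intron-containing nad2 and rpl2 ranged 2.99-fold and 3.04-fold over the libraries, and the 9 intron-free members 16.5-fold (rps12) to 77.8-fold (cob). Counts differed too, with means of 469 for nad2 and 889 for rpl2 against 23.3 (nad3) to 337 (atp1) in the intron-free members. The most abundant member, ATMG00020, ranged 48.9-fold at a mean of 31382 counts. The part of abundance in these ranges was not tested. In ago4-2 control replicates 1 and 2, rpl2 stood at 57.0 and 32.6 CPM and nad2 at 30.9 and 13.7 CPM, beside 7.56 and 0.814 CPM for cob.

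As a description over the 12 libraries, 23 members had a correlation of at least 0.9 between their log2 CPM and the summed level of the other members. The members most like the rest were ATMG01390 (r = 0.991), ATMG00030 (r = 0.990) and ATMG00020 (r = 0.980). Least like the rest were ATMG00660 (r = 0.338), ATMG00060 (r = 0.582) and ATMG00160 (r = 0.615). The libraries share groups and differ in depth, so these values carry no test.

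Among complex I genes, nad2 stood at 25.7 and 27.7 CPM in ago4-2 in NaCl, 30.9 and 13.7 CPM in ago4-2 in control, 15.2 and 13.8 CPM in ago4-3 in NaCl, 16.4 and 15.6 CPM in ago4-3 in control, 10.3 and 14.6 CPM in Col-0 in NaCl, and 13.9 and 10.9 CPM in Col-0 in control. Apart from ago4-2 control replicate 1, the ago4-2 libraries in NaCl were the highest. For complex III, cob stood at 5.80 and 2.57 CPM in ago4-2 in NaCl, 7.56 and 0.814 CPM in ago4-2 in control, 0.0972 and 0.926 CPM in ago4-3 in NaCl, 5.74 and 3.41 CPM in ago4-3 in control, 0.809 and 1.82 CPM in Col-0 in NaCl, and 1.84 and 0.994 CPM in Col-0 in control. Its ago4-3 libraries did not overlap between NaCl and control. For complex IV, cox3 stood at 4.85 and 2.04 CPM in ago4-2 in NaCl, 4.91 and 0.475 CPM in ago4-2 in control, 0.0972 and 0.823 CPM in ago4-3 in NaCl, 4.15 and 2.57 CPM in ago4-3 in control, 0.866 and 1.53 CPM in Col-0 in NaCl, and 1.25 and 1.16 CPM in Col-0 in control. As for cob, its ago4-3 libraries did not overlap between NaCl and control.

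For the ATP synthase, atp1, which encodes the alpha subunit, stood at 20.6 and 14.1 CPM in ago4-2 in NaCl, 37.1 and 4.58 CPM in ago4-2 in control, 1.56 and 6.35 CPM in ago4-3 in NaCl, 24.7 and 15.9 CPM in ago4-3 in control, 4.85 and 9.65 CPM in Col-0 in NaCl, and 10.9 and 6.004 CPM in Col-0 in control. Its ago4-3 control libraries lay above all 4 Col-0 libraries, and its ago4-3 NaCl libraries did not. The ribosomal protein gene rpl2 stood at 39.2 and 35.1 CPM in ago4-2 in NaCl, 57.0 and 32.6 CPM in ago4-2 in control, 33.3 and 30.4 CPM in ago4-3 in NaCl, 31.3 and 32.3 CPM in ago4-3 in control, 18.7 and 27.3 CPM in Col-0 in NaCl, and 29.9 and 26.4 CPM in Col-0 in control. All 4 of its ago4-3 libraries lay between 30.4 and 33.3 CPM. ATMG00180, of cytochrome c maturation, stood at 7.06 and 5.30 CPM in ago4-2 in NaCl, 8.78 and 2.31 CPM in ago4-2 in control, 3.99 and 3.26 CPM in ago4-3 in NaCl, 4.75 and 4.35 CPM in ago4-3 in control, 2.17 and 3.92 CPM in Col-0 in NaCl, and 2.59 and 1.53 CPM in Col-0 in control. It was not called in any of the 12 contrasts.

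Of members given by identifier, ATMG00030, ATMG00090 and ATMG00060 had the highest counts after ATMG00020 and ATMG01390. ATMG00030 stood at 199 and 122 CPM in ago4-2 in NaCl, 304 and 21.9 CPM in ago4-2 in control, 17.2 and 63.6 CPM in ago4-3 in NaCl, 175 and 103 CPM in ago4-3 in control, 23.5 and 51.0 CPM in Col-0 in NaCl, and 49.6 and 18.9 CPM in Col-0 in control. Both ago4-2 libraries in NaCl and both ago4-3 libraries in control lay above all 4 Col-0 libraries. ATMG00060 stood at 49.9 and 55.8 CPM in ago4-2 in NaCl, 59.6 and 24.8 CPM in ago4-2 in control, 34.6 and 34.7 CPM in ago4-3 in NaCl, 24.9 and 23.7 CPM in ago4-3 in control, 20.7 and 27.6 CPM in Col-0 in NaCl, and 18.8 and 14.9 CPM in Col-0 in control. All 4 ago4-2 libraries exceeded the Col-0 libraries of the same condition. ATMG00090 stood at 74.8 and 75.3 CPM in ago4-2 in NaCl, 85.6 and 27.0 CPM in ago4-2 in control, 38.0 and 41.2 CPM in ago4-3 in NaCl, 43.2 and 48.9 CPM in ago4-3 in control, 28.3 and 40.7 CPM in Col-0 in NaCl, and 32.1 and 26.3 CPM in Col-0 in control. Its ago4-2 libraries in NaCl did not overlap with those of Col-0. The 3 members with the fewest counts were nad3, rps12 and ATMG00040, with means of 23.3, 29.1 and 30.9 counts per library. ATMG00040 had 56 and 38 counts in ago4-2 in NaCl, 51 and 13 in ago4-2 in control, 6 and 15 in ago4-3 in NaCl, 80 and 26 in ago4-3 in control, 8 and 21 in Col-0 in NaCl, and 46 and 11 in Col-0 in control.

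To ask what salt changed, NaCl was set against control within each genotype by edgeR's quasi-likelihood test over all 17751 genes, and a gene was called at a Benjamini-Hochberg adjusted p under 0.05. In ago4-3 seeds, 12 of 37 members fell in NaCl and 0 rose. In ago4-2 seeds nad3 alone rose and 0 members fell, and in Col-0 seeds 0 members were called. Of all genes, 12.6% rose and 10.4% fell in ago4-3, 17.4% rose and 17.8% fell in ago4-2, and 10.7% rose and 7.42% fell in Col-0. In Col-0, 1 member had an unadjusted p under 0.05, and DESeq2 called 0.

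The members that fell in ago4-3 included genes of complexes I, III and IV and of the ATP synthase. They were nad3, cob (−3.04 ± 0.89, adjusted p = 0.0228), cox3 (−2.75), atp6 (−2.76), ATMG01090 (−2.69), atp9 (−2.45), atp1 (−2.30), and, by identifier, ATMG01360 (−2.78 ± 0.79, adjusted p = 0.0196), ATMG01170 (−2.60), ATMG01120 (−2.44), ATMG00285 (−2.40) and ATMG00040 (−2.35), all log2 fold changes of NaCl over control. The median over the 37 members was −2.01, against −0.01 over all genes, and 2 of 37 values were positive. Of the 9 intron-free members, 6 were called and the values ran from −5.34 to −2.01, whereas nad2 stood at −0.14 and rpl2 at 0.00. The 24 members without annotation ran from −2.78 to 0.51, with 5 called lower, and may include other intron-containing genes or parts of them. The contrast thus rests on 2 intron-containing rows. When each library was scaled to the members' summed counts, the median was −0.11. ATMG00020 and ATMG01390 held a median of 80.1% of these sums, so such values are mainly relative to these 2 members. Counts of members under other fits, here and below, are given without the share of all genes called in the same fits. The count was 1 without ago4-3 control replicate 1 or without ago4-3 NaCl replicate 1, 7 without ago4-3 control replicate 2, and 30 (1 higher, 29 lower) without either ago4-2 control library or in a fit of the 2 ago4-3 groups alone. Of 37 members in the authors' deposited table of this comparison, 1 was higher and 30 were lower at a false discovery rate under 0.05, where 22.6% of all genes passed.

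In Col-0 the median of the members was −0.16 and in ago4-2 it was −0.0037, beside 0.01 and −0.02 over all genes. For ago4-2 this median rests on the control library chosen. Without ago4-2 control replicate 1, 32 members were called higher in NaCl, and without replicate 2, 8 were called lower, with medians over all left-out libraries from −0.86 to 1.97. For Col-0, 1 member was called lower without Col-0 NaCl replicate 2, and 1 higher and 1 lower without either ago4-2 control library. In the authors' deposited tables, 1 member was higher and 5 lower of 33 in Col-0 (22.73% of all genes passed), and 3 were higher and 2 lower of 37 in ago4-2 (23.47% of all genes passed).

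**Figure D3:**
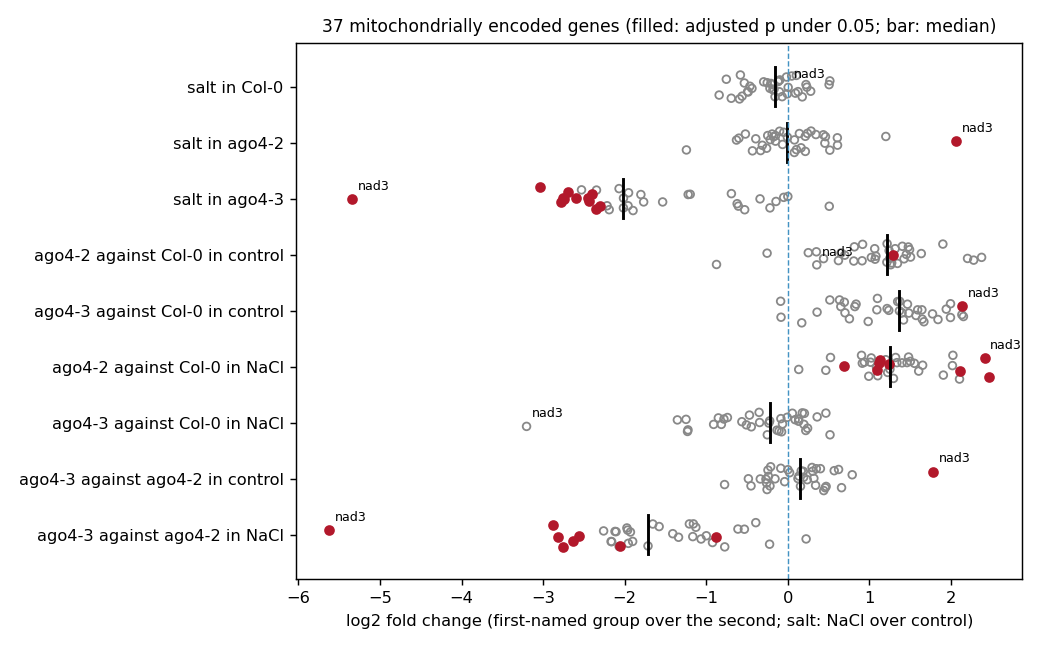
Log2 fold change of each of the 37 members in 9 comparisons (NaCl over control, or the first-named genotype over the second), with filled circles for an adjusted p under 0.05 and a black bar at the median. The members' median is −2.01 for salt in ago4-3, −1.71 for ago4-3 against ago4-2 in NaCl and 1.22 to 1.37 where a mutant exceeds Col-0, and nad3 lies furthest from 0 in 5 rows.

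Next, the mutants were set against Col-0 within each condition. In NaCl, 8 of 37 members were higher in ago4-2 and 0 were lower, beside 14.9% of all genes called higher and 14.4% called lower. They were nad3 (2.42 ± 0.49, adjusted p = 0.00207), ATMG00060 (1.13 ± 0.27, adjusted p = 0.00593), nad2 (1.10), rps12 (2.47), ATMG00090 (1.12), rpl2 (0.69), ATMG00510 (1.24) and ATMG00040 (2.11). The steady intron-containing nad2 and rpl2 are thus among the called members here. All 37 log2 fold changes were positive, with a median of 1.25 against −0.02 over all genes. The median was −0.66 relative to the members' summed counts, which are mostly those of ATMG00020 and ATMG01390. Without TMM the median of all genes moved to −0.29, and that of the members to 1.01. The count was 1 without Col-0 NaCl replicate 1, 4 and 3 without ago4-2 NaCl replicates 1 and 2, 28 and 29 without ago4-2 control replicates 1 and 2, and 29 in a fit of the 2 groups alone. By the authors' deposited table, 35 of 37 members were higher and 0 lower, where 34.95% of all genes passed.

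In control, ATMG00060 was higher in ago4-2 (1.29 ± 0.28, adjusted p = 0.00888), as 1 of 37 members called (5.22% of all genes were called higher and 3.22% lower), and 35 of 37 values were positive. The median of 1.22 was −0.50 with libraries scaled to the members' summed counts. The count was 32 without ago4-2 control replicate 2, 3 members were called lower without replicate 1, 0 were called without Col-0 control replicate 2 or in a fit of the 2 groups alone, and 2 were called higher without Col-0 NaCl replicate 2. The authors' deposited table had 26 of 33 members higher and 1 lower, where 7.92% of all genes passed.

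In ago4-3 in control, nad3 was higher (2.14 ± 0.50, adjusted p = 0.0446), as the only one of 37 members called, beside 0.851% of all genes called higher and 0.806% called lower. The median of the members was 1.37, and −0.53 with libraries scaled to the members' summed counts. This call ended in 7 of 12 fits with a library left out (adjusted p up to 0.392) and in the fit with nad3 summed with its copy (adjusted p = 0.0587), while 9 and 10 members were called higher without ago4-2 control replicates 1 and 2 and 25 in a fit of the 2 groups alone. The authors' deposited table had 33 of 37 members higher and 0 lower, where 8.46% of all genes passed.

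Between ago4-3 and Col-0 in NaCl, 0 of 37 members were called by edgeR (0.541% of all genes were called higher and 0.648% lower), 1 member in each direction had an unadjusted p under 0.05, and DESeq2 called 0. The median was −0.22, and 0.08 with libraries scaled to the members' summed counts. Of 28 members in the authors' deposited table, 0 were higher and 4 were lower, where 3.07% of all genes passed. Col-0 libraries are shared between the mutants' comparisons, so their values are not independent of each other.

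Between the mutants, 8 of 37 members were lower in ago4-3 than in ago4-2 in NaCl and 0 were higher, beside 11% of all genes called lower and 9.89% called higher. They were nad3 (−5.62 ± 0.77, adjusted p = 0.00012), cob (−2.88), atp6 (−2.82), cox3 (−2.75), ATMG01360 (−2.63), rps12 (−2.56), ATMG00640 (−2.06) and nad2 (−0.88). The median was −1.71, and 0.36 with libraries scaled to the members' summed counts. The count was 1 without ago4-2 NaCl replicate 1 or without ago4-3 NaCl replicate 1, 29 without either ago4-2 control library, and 33 in a fit of the 2 groups alone. The authors' deposited table had 34 of 37 members lower and 0 higher, where 28.5% of all genes passed.

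In control, nad3 was higher in ago4-3 than in ago4-2 (1.78 ± 0.53, adjusted p = 0.0483), as the only one of 37 members called, beside 3.79% of all genes called higher and 5.21% called lower. The median was 0.16. Of the 12 fits with a library left out, 3 kept this call, 25 members were called higher without ago4-2 control replicate 1, 5 were called lower without replicate 2, and the call ended with nad3 summed with its copy (adjusted p = 0.0666). Of 37 members in the authors' deposited table, 1 was higher and 1 was lower, where 5.87% of all genes passed.

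**Figure D4:**
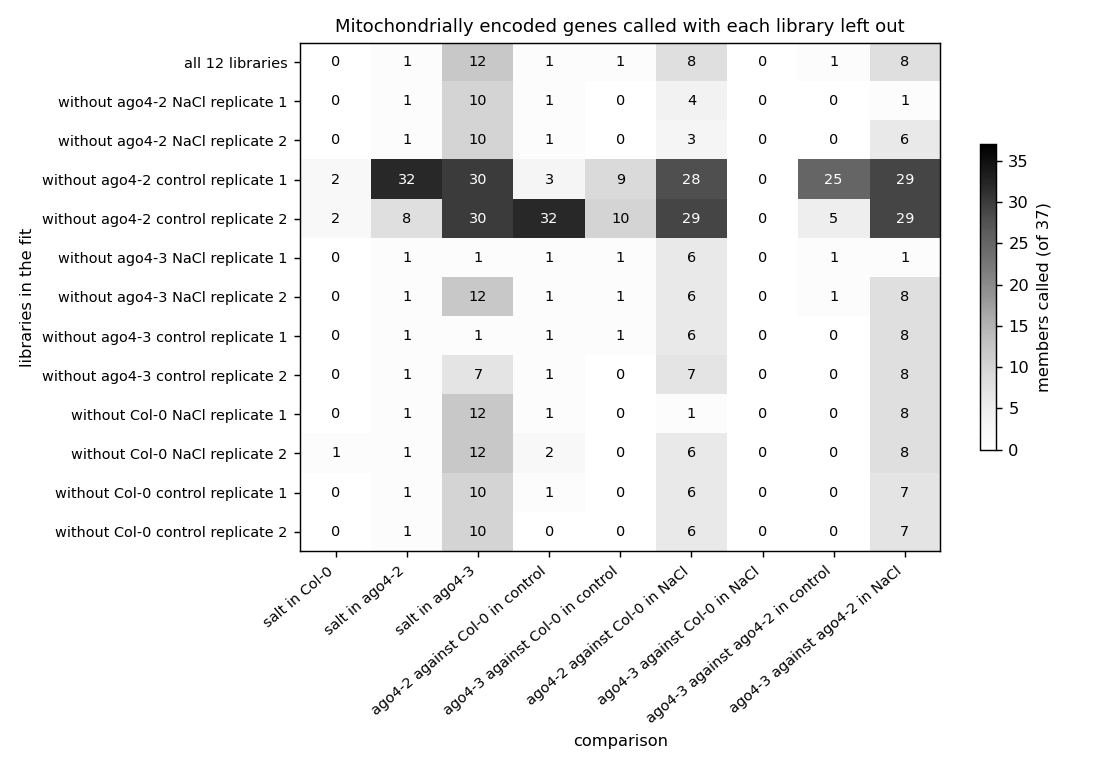
Number of the 37 members called in each of 9 comparisons (columns) with all 12 libraries and with each library left out in turn (rows). The share of all genes called in each fit is not shown. Leaving out ago4-2 control replicate 1 or replicate 2 brings the count to between 28 and 32 in several comparisons, including salt in ago4-3, which holds neither of these libraries.

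The salt response itself was compared between genotypes by an interaction term. Against Col-0, 0 of 37 members differed in ago4-2 (4.43% of all genes did), with 1 unadjusted p under 0.05, and DESeq2 called 0 of the 27 members to which it gave an adjusted p. Without ago4-2 control replicate 1, 13 members differed. In ago4-3, 0 of 37 members differed from Col-0 (0.0225% of all genes did), with 7 unadjusted p under 0.05, and DESeq2 called 1. That member was nad3, with an adjusted p of 0.014 by DESeq2 and of 0.0983 by edgeR. Without either ago4-2 control library, edgeR called 1 member. Between the mutants, in a contrast added after the first results were seen, 1 member had a salt response that was lower in ago4-3 than in ago4-2, beside 0.169% of all genes called lower and 0.648% called higher. It was nad3 (−7.41 ± 0.95, adjusted p = 0.00182), to which DESeq2 gave no adjusted p (−7.54 ± 1.31, unadjusted p = 8.92e-09). Without ago4-2 control replicate 1, 31 members were called lower in this contrast.

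Of all members, nad3 had the most calls, 7 in the 12 contrasts. It had 58 and 56 counts in ago4-2 in NaCl, 13 and 9 in ago4-2 in control, 0 and 2 in ago4-3 in NaCl, 39 and 43 in ago4-3 in control, 14 and 14 in Col-0 in NaCl, and 26 and 6 in Col-0 in control. In NaCl the ago4-2 libraries were therefore the highest and the ago4-3 libraries the lowest, while in control the ago4-3 libraries were the highest. In CPM these are 2.51 and 1.87, 0.840 and 0.305, 0 and 0.0686, 1.38 and 2.26, 0.404 and 0.403, and 0.499 and 0.248 in the same order of groups. In ago4-3 the 2 counts in NaCl against 82 in control gave a level 43.1-fold lower, with a counting interval of 11.6 to 362. Against the 114 counts of ago4-2 in NaCl they gave a level 53.4-fold lower (14.4 to 446), and against the 28 counts of Col-0 in NaCl one 10.04-fold lower (2.53 to 87.0), a difference that edgeR did not call (−3.20 ± 0.96, adjusted p = 0.178). These intervals cover counting error only. The deposited data kept only genes that reached 1 CPM in 2 or more libraries of a comparison. For nad3, both libraries of a group reached 1 CPM in ago4-2 in NaCl and ago4-3 in control only. It is thus a member through the groups where it was high. Contrasts that hold these groups, including those named in the next paragraph, are not independent of this filter. The fitted log2 fold change of NaCl over control was −5.34 ± 0.79 in ago4-3 (adjusted p = 0.000209) and 2.07 ± 0.52 in ago4-2 (adjusted p = 0.00621), and 0.01 ± 0.61 in Col-0 (adjusted p = 0.997).

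Of the 33 calls in all 12 contrasts, 4 held with each of the 12 libraries left out, and all 4 were of nad3. They were salt in ago4-3 (adjusted p up to 0.00392), ago4-2 against Col-0 in NaCl (up to 0.0232), ago4-3 against ago4-2 in NaCl (up to 0.00238) and the difference between the mutants' salt responses (up to 0.0152). The rise with salt in ago4-2 ended without ago4-2 control replicate 2 (adjusted p = 0.0898).

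The nuclear copy of nad3, AT2G07751, was counted as a row of its own although its sequence is identical in TAIR10.1. It had 47 and 45 counts in ago4-2 in NaCl, 16 and 6 in ago4-2 in control, 6 and 20 in ago4-3 in NaCl, 35 and 31 in ago4-3 in control, 11 and 15 in Col-0 in NaCl, and 26 and 8 in Col-0 in control. In ago4-3 in NaCl the copy therefore held 26 counts beside 2 of the member, whereas in the other groups the pair had counts closer to each other. With the pair summed, the log2 fold change of NaCl over control in ago4-3 was −2.54 ± 0.53 (adjusted p = 0.0031) and in ago4-2 1.87 ± 0.49 (adjusted p = 0.00889). Summed, ago4-2 exceeded Col-0 in NaCl by 2.33 (adjusted p = 0.00221), ago4-3 lay below ago4-2 in NaCl by −2.83 (adjusted p = 0.00145), and the mutants' salt responses differed by −4.41 ± 0.73 (adjusted p = 0.00914). Against Col-0 in NaCl, the summed pair in ago4-3 stood at 0.292 and 0.755 CPM, against 0.722 and 0.836 CPM in Col-0, so the groups overlapped (−0.50 ± 0.58, adjusted p = 0.76). The fall with salt in ago4-3 was smaller in the pair than in the member alone.

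Next to nad3 lies rps12, a gene of the small ribosomal subunit, 45 bases downstream both in the mitochondrial genome and on chromosome 2. It had 56 and 82 counts in ago4-2 in NaCl, 36 and 7 in ago4-2 in control, 6 and 16 in ago4-3 in NaCl, 42 and 40 in ago4-3 in control, 17 and 15 in Col-0 in NaCl, and 28 and 4 in Col-0 in control. In NaCl its ago4-2 libraries were thus the highest, and its ago4-3 libraries overlapped with those of Col-0. Summed with its copy AT2G07675, it was higher in ago4-2 than in Col-0 in NaCl (2.56 ± 0.68, adjusted p = 0.0109) and lower in ago4-3 than in ago4-2 in NaCl (−2.63 ± 0.71, adjusted p = 0.0161), and its salt response in ago4-3 was not called (−2.03 ± 0.72, adjusted p = 0.0554). The sources used here do not say whether a read could be counted in both rows of a neighbouring pair.

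**Figure D5:**
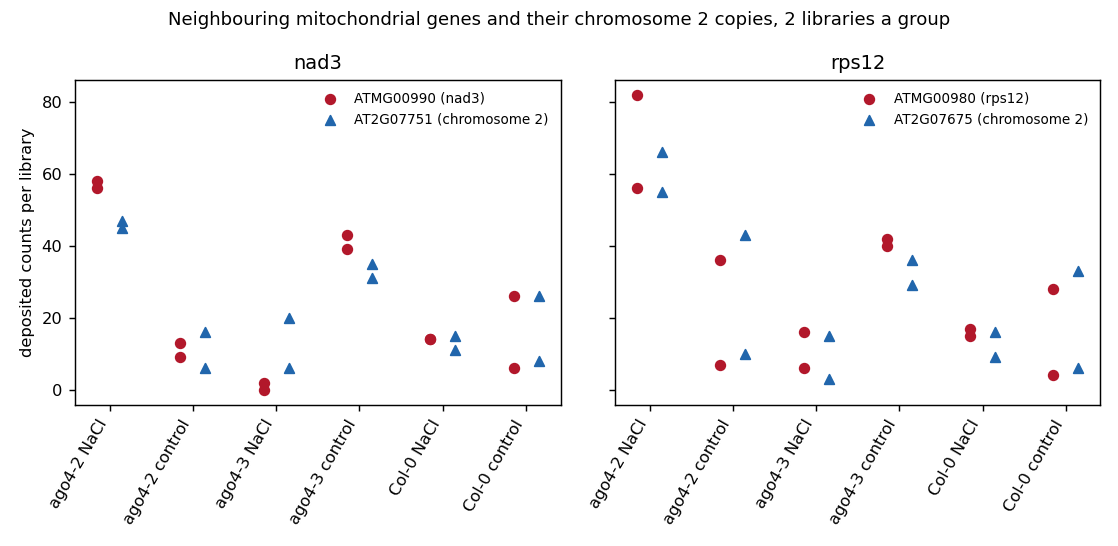
Deposited counts per library (linear axis) of nad3 and rps12 (circles) and of their chromosome 2 copies AT2G07751 and AT2G07675 (triangles), 2 libraries in each of the 6 groups. In ago4-3 in NaCl nad3 has 0 and 2 counts beside 6 and 20 of its copy, and both pairs are highest in ago4-2 in NaCl.

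Chromosome 2 rows had close to the counts of the members in most intron-free genes. Of 26 counted rows between AT2G07660 and AT2G07840, 24 aligned over their length to the mitochondrial genome at 99.7% to 100% identity (median 99.9%), between 3244585 and 3503476 of chromosome 2 (TAIR10.1), and AT2G07680 and AT2G07690 did not align. Of the 24, 12 are noted as the copy of a member. Over all libraries the copy had 0.92 to 1.56 counts for each count of its intron-free member (rps12 lowest, cob highest), but 0.369 for rpl2, 0.0835 for nad2 and 0.522 for ATMG01090. The order of the 2 libraries of a group was the same in copy and member in all 6 groups for cob, atp6, cox3, atp9, ATMG01090 and atp1, and in 3 of 6 groups for rpl2. The 24 rows held 4 called lower for salt in ago4-3 (median −1.75), 1 called higher for salt in ago4-2, 2 called higher in ago4-2 against Col-0 in NaCl (median 1.17) and 4 called lower in ago4-3 against ago4-2 in NaCl (median −1.65). Of all genes, 10.4%, 17.4%, 14.9% and 11% were called in the same comparisons and directions. Where the genomic sequences are identical, a read without an edited base or splice junction fits the mitochondrial gene and its nuclear copy equally.

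Among nuclear genes of the same complexes, those listed for complex I that changed with salt all rose. The lists were chosen by function with earlier results of these data known, and need not hold every subunit. In NaCl, 6 of the 12 complex I genes listed rose in ago4-3, 6 in ago4-2 and 4 in Col-0, and 0 fell. Of all genes, 12.6%, 17.4% and 10.7% rose. The carbonic anhydrase-like subunit GAMMA CAL2 rose by 0.62 in ago4-3 (adjusted p = 0.00152), by 0.99 in ago4-2 (adjusted p = 1.56e-05) and by 0.53 in Col-0 (adjusted p = 0.00553). The complex I list had medians of 0.34, 0.26 and 0.15 in these comparisons, beside −0.01, −0.02 and 0.01 over all genes. Complex II takes up electrons from succinate and has no member on the list of 13 named mitochondrial genes. Its seed-type iron-sulfur subunit SDH2-3 rose by 1.83 in ago4-3, by 1.95 in ago4-2 and by 0.95 in Col-0, while SDH2-1 fell by 0.59, 0.82 and 0.45 on the log2 scale.

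In the list of complex III and cytochrome c genes, 2 of 11 fell with salt in each genotype, and these were the cytochrome c genes CYTC-1 (−0.38 in ago4-3, −0.56 in ago4-2 and −0.52 in Col-0) and CYTC-2 (−0.64, −0.99 and −0.67). Of all genes, 10.4% fell in ago4-3, 17.8% in ago4-2 and 7.42% in Col-0, so that the count is near the share of all genes in ago4-2. In complex IV, AT4G37830 alone of 4 rose in each (0.64, 0.46 and 0.39). In complex V, 0 of 6 changed in ago4-3, 2 rose in ago4-2 and 0 changed in Col-0. By comparison, 12.6%, 17.4% and 10.7% of all genes rose in ago4-3, ago4-2 and Col-0. In alternative respiration, the pathways by which electrons bypass the main complexes, 5 of 9 tested genes fell in ago4-3 and 0 rose, 4 fell and 3 rose in ago4-2, and 4 fell and 0 rose in Col-0, against the same shares of all genes. AOX1A, the alternative oxidase induced by stress, fell by 1.77 in ago4-3 (adjusted p = 2.18e-06), by 1.68 in ago4-2 and by 1.24 in Col-0 on the log2 scale. NDB3 and NDB4, external NAD(P)H dehydrogenases, fell with it in all 3 genotypes, and NDB2 fell in ago4-3 and Col-0 and rose in ago4-2.

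Of 16 genes of mitochondrial transcription, splicing, editing and RNA decay, 2 fell with salt in ago4-3, 3 in ago4-2 and 1 in Col-0, and 0 rose. These counts are near the 10.4%, 17.8% and 7.42% of all genes that fell. AT5G14580, a polynucleotide phosphorylase that degrades mitochondrial RNA, fell in all 3 genotypes, by 0.45, 0.51 and 0.47 on the log2 scale. Of 8 genes that maintain mitochondrial DNA, 1 rose and 1 fell in ago4-3, 1 rose and 2 fell in ago4-2, and 1 fell in Col-0. The same shares of all genes fell, and 12.6%, 17.4% and 10.7% rose in these genotypes. Against Col-0, 3 of the 8 were lower in ago4-2 in NaCl and 1 in control, and 0 were higher. Beside them, 14.4% of all genes were called lower in NaCl and 3.22% in control. MTSSB, a single-strand DNA-binding protein, was lower in ago4-2 than in Col-0 in NaCl (−0.99 ± 0.14, adjusted p = 8.55e-05) and in control (−0.81 ± 0.13, adjusted p = 0.00131). In ago4-3 against Col-0, the smallest adjusted p by edgeR among the 12 nuclear complex I genes was 0.354 in NaCl, where 5 were higher at an unadjusted p under 0.05, and 0.417 in control, where 0 were. The plastid-encoded genes, set beside the members, had 12 of 82 lower with salt in ago4-3, 1 higher with salt in ago4-2, 0 changed in Col-0, and 5 higher in ago4-2 than in Col-0 in each condition. Of all genes, 10.4% fell with salt in ago4-3, 17.4% rose in ago4-2, and 14.9% in NaCl and 5.22% in control were higher in ago4-2 than in Col-0.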

How the data were processed

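Polyadenylated RNA of 12 libraries in 6 groups was compared, starting from the 9 comparison tables that the authors deposited. Per the file headers, the authors gave whole-number counts for each gene and library, log2 fold changes, and p-values with false discovery rates. The counts were taken as raw. The authors' log2 fold changes and p-values appear only in sentences that name their deposited table. The 36 pseudo-count columns were not used. The submitters' processing notes name TAIR10 as the build and list SAMtools, Picard, DESeq and edgeR, without their roles. The sources used here do not give the aligner, the treatment of reads matching several places or the use of strand, and each could move counts between a member, its nuclear copy and an overlapping gene. Every table had already been filtered, to genes reaching 1 CPM in 2 or more libraries. Of the members, 28 were in all 9 tables and 9 in fewer, with nad3, rps12, rpl5 and ATMG00040 in 6. Such members passed only where a group was high, and calls that involve that group are not independent of the filter. Depth is given with the results.

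The 17751 genes counted in all 12 libraries received TMM scaling and entered edgeR's quasi-likelihood test (edgeR 4.0.16 under R 4.3.3), with a coefficient per group. P-values were two-sided and Benjamini-Hochberg adjusted over all genes. The edgeR low-count filter removed 0 genes. Log2 fold changes are given ± SE. Alternatives were DESeq2 1.42.0, other scalings and filters, a replicate block, only the groups compared, and each library left out, where the lone library left in a group is taken to be as variable as the rest. Intervals of shares are Wilson intervals at 95% and those of folds are exact (scipy 1.17.1). Chromosome 2 rows were aligned to the RefSeq TAIR10.1 mitochondrial genome with BLAST 2.17.0 (e-value limit 1e-20). The statistical scripts were tested on simulated data.

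The members and all lists were chosen with earlier results of these data known. By the rule for named genes, values in every library were given for the member with the highest mean count of each role, members whose call held with every library left out, nad3, the 5 open reading frames with the highest mean count and the 3 members with the lowest, and up to 4 genes of each nuclear list were named by adjusted p. The rule also asked for ribosomal RNA genes. As the sources used here gave roles for 13 members only, the rule could not be applied to ribosomal RNA genes or open reading frames. In their place stand the 5 identifiers with the highest mean counts among members without a role in these sources. This replacement was made after the data were seen. Whether these 5 are open reading frames, ribosomal RNA genes or other genes was not determined.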

Additional observations from a re-analysis of the deposited data

Results flagged for a closer look

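The response of nad3 (ATMG00990) to salt differed between the mutant lines. In ago4-3, nad3 had 0 and 2 counts in NaCl and 39 and 43 counts in control, and in ago4-2 it had 58 and 56 counts in NaCl and 13 and 9 counts in control. The difference of the log2 fold changes, ago4-3 minus ago4-2, was −7.41 ± 0.95 (edgeR quasi-likelihood, adjusted p = 0.00182), in a contrast added after the first results were seen. It held with each of the 12 libraries left out, at values from −10.7 to −6.69 and adjusted p from 0.000459 to 0.0152. With nad3 summed with its nuclear copy AT2G07751, identical in TAIR10.1, it was −4.41 ± 0.73 (adjusted p = 0.00914). The part of reads shared between gene and copy was not tested. Only in ago4-2 in NaCl and ago4-3 in control did both libraries reach 1 CPM for nad3, the limit of the deposited data's filter. This contrast is therefore not independent of the filter that made nad3 a member.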

How the results depend on the processing

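With each of the 12 libraries left out in turn, the number of members called ran from 0 to 2 for salt in Col-0, 1 to 32 for salt in ago4-2 and 1 to 30 for salt in ago4-3. It ran from 0 to 32 for ago4-2 and 0 to 10 for ago4-3 against Col-0 in control, from 1 to 29 for ago4-2 and 0 to 0 for ago4-3 against Col-0 in NaCl, and from 0 to 25 in control and 1 to 29 in NaCl for ago4-3 against ago4-2. For the salt responses it ran from 0 to 13 for ago4-2 and 0 to 1 for ago4-3 against Col-0, and from 1 to 31 for ago4-3 against ago4-2. The members' median log2 fold change ran from −0.82 to 0.23, −0.86 to 1.97 and −3.11 to −1.35 for salt in Col-0, ago4-2 and ago4-3. It ran from −0.86 to 2.03 and 1.04 to 1.76 for ago4-2 and ago4-3 against Col-0 in control, from 0.90 to 1.84 and −1.19 to 0.49 in NaCl, and from −0.75 to 2.37 in control and −2.79 to −1.11 in NaCl for ago4-3 against ago4-2. Group shares ran between their 2 libraries, from 0.279% to 0.400% in ago4-2 and 0.0369% to 0.152% in ago4-3 in NaCl, 0.0761% to 0.674% in ago4-2 and 0.285% to 0.437% in ago4-3 in control, and 0.0682% to 0.154% and 0.0743% to 0.144% in Col-0 in NaCl and control. The share of the 2 most abundant members ran from 75.4% to 79.7%, and calls of nuclear list genes, 112 in all, from 74 to 127. Of 396 results on single members with a library left out, 284 kept their call and 112 lost it, and under the other settings 244 kept it and 29 lost it. None of the 33 calls made with all 12 libraries changed sign in these fits. Calls made only with a library left out did take both directions: without ago4-2 control replicate 1 and replicate 2, 32 members were called higher and 8 lower for salt in ago4-2, 3 lower and 32 higher for ago4-2 against Col-0 in control, and 25 higher and 5 lower for ago4-3 against ago4-2 in control.

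Fitting only the groups compared gave 2 calls for salt in Col-0, 30 for salt in ago4-3, 0 and 25 for ago4-2 and ago4-3 against Col-0 in control, 29 for ago4-2 against Col-0 in NaCl, and 0 in control and 33 in NaCl for ago4-3 against ago4-2. DESeq2 called 6 members for salt in ago4-3, 2 for ago4-2 against Col-0 in control, 5 for ago4-3 against ago4-2 in NaCl, 1 for the salt response of ago4-3 against Col-0, and 0 against ago4-2, where it gave 14 members no adjusted p. Total counts without TMM gave 1 for salt in Col-0, 0 for ago4-3 against Col-0 in control and 5 for ago4-2 against Col-0 in NaCl. Requiring a mean of 5 CPM kept 16 members (14179 genes, nad3 not among them) and gave 0 for salt in ago4-2, 2 for salt in ago4-3, 0 for ago4-3 against Col-0 in control, 5 for ago4-2 against Col-0 in NaCl, 0 in control and 2 in NaCl for ago4-3 against ago4-2, and 0 for their salt responses, with medians of −0.95 for salt in ago4-3 and 0.79 for ago4-3 against Col-0 in control. Summing members with their nuclear copies gave 0 for ago4-3 against Col-0 and against ago4-2 in control. Scaling to the members' summed counts gave medians of −0.11 for salt in ago4-3, −0.50 and −0.53 for ago4-2 and ago4-3 against Col-0 in control, −0.66 for ago4-2 against Col-0 in NaCl and 0.36 for ago4-3 against ago4-2 in NaCl. Without ATMG00020 the share was 0.158% in ago4-2 in NaCl and 0.164% in ago4-3 in control, and without the 2 most abundant members 0.0522%, 0.0514%, and in Col-0 0.0254% in NaCl and 0.0284% in control. The replicate block gave 0 for ago4-3 against Col-0 and against ago4-2 in control and 10, against 12, for salt in ago4-3. Same-numbered libraries had deviations correlated at −0.176 to 0.251, which does not settle whether the numbers pair the samples. Leaving out ribosomal RNA rows was not run, since they could not be told from the identifiers. The share of all genes called in these other fits is not given here, so shifts in the members' counts are not set against it. The cause of these shifts was not tested. With 0 to 58 counts in a library, nad3 is limited by depth.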
